A study of Rattus norvegicus with 9 samples.

Results

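Monocytes at the tibial osteotomy site of rats were described here, as 9149 of the 114232 cells that passed quality filters in 8 single-cell RNA sequencing libraries (8.01%). They were chosen by their own transcript counts, so the levels of the genes named in the rule are a description and not a result. A cell was kept with at least 200 detected genes and at most 20% mitochondrial transcripts. A monocyte then had at least 1 unique molecular identifier (UMI, 1 per captured transcript) of Csf1r, the receptor for the monocyte growth factor CSF1, and a sum of Fn1, F13a1, Vcan and Ccr2 of at least 5 per 10000 UMIs. Macrophages were kept out by complement C1qa, C1qb and C1qc under 3 in sum, granulocyte precursors by the granule proteases Mpo, Elane, Prtn3 and Ctsg under 20 in sum, and bone-forming cells by Col1a1 under 50, each per 10000 UMIs.

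The study asked whether shock waves at a cut tibia help a wound on the foot to heal, and whether small vesicles released by cells carry the effect. In Sprague-Dawley rats aged 6 to 8 weeks, a circular osteotomy of 3 mm was made in the proximal tibia and a full-thickness skin wound of 4 mm on the back of the foot of the same leg, so every library described here comes from rats with both injuries. The osteotomy-alone group is called TO, and the TOE group also received radial extracorporeal shock waves at the tibia on days 2 and 4 after surgery. Tissue of the osteotomy site was collected on 10x Genomics Chromium as 1 library per condition, named by day of treatment and hours after it: TO 2d 0h, TO 2d 4h, TO 4d 4h, TO 4d 24h, TOE 2d 4h, TOE 2d 24h, TOE 4d 4h and TOE 4d 24h. A TO library of 2d 24h is labelled but was not analysed here. This left TOE 2d 24h and TO 2d 0h with no partner in the other group and 3 pairs of TOE and TO at the same time, namely 2d 4h, 4d 4h and 4d 24h. Runs of 8 values below follow that order, with the 4 TO libraries first. With 1 library per condition no difference between conditions could be set against the spread between animals, and no test was made. Intervals are exact 95% intervals that cover counting error only.

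Monocytes arise in the bone marrow, leave it through the chemokine receptor Ccr2 and enter injured tissue, where they release cytokines and chemokines, clear debris and become macrophages or, in bone, osteoclasts. Classical monocytes carry Ly6c and Ccr2 and answer danger signals through Cd14 and Toll-like receptors, which drive NF-kB target genes such as Il1b and Ccl2. Patrolling monocytes carry Cx3cr1 and depend on Nr4a1. In marrow next to a fracture, dividing monocyte precursors and monocytes that have left the circulation lie side by side.

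The monocytes held 163129429 UMIs in all, 9396459 to 35919754 per library, and their median depth was 12938 to 19184.5 UMIs and 3524.5 to 4389.5 genes per cell, against 4572 to 5790 UMIs over all cells kept. The unit of expression is CPM, a gene's UMIs per 1000000 UMIs of all monocytes of that library. As the rule requires, Vcan was 12.8-fold, Ccr2 13.1-fold, Fn1 9.34-fold, Csf1r 7.99-fold and F13a1 2.14-fold above all other cells, each in 8 of 8 libraries. Ms4a7, the remaining marker, was 1.11-fold above them, higher in 4 of 8 libraries and low throughout (0.532 to 9.91 CPM). Among the 20 genes outside the rule with the largest excess over other cells were Msr1 (10.6-fold), a scavenger receptor, Ly6c (10.4-fold), the endotoxin co-receptor Cd14 (10.2-fold), Mnda (9.54-fold), the ficolin Fcnb (9.34-fold), the RNA sensor Tlr7 (9.10-fold), S100a6 (8.53-fold) and the pore-forming Mpeg1 (8.42-fold). Cx3cr1 lay at 4.12 to 10.9 CPM, against 453 to 672 CPM for Ly6c in the same libraries.

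Of the 15608 cells with a Csf1r UMI, 4780 failed only the sum of Fn1, F13a1, Vcan and Ccr2, 176 only the C1q limit, 82 only the protease limit and 195 only the Col1a1 limit, and 1226 failed more than 1 criterion. Just inside the rule lay 562 monocytes (6.14%) with a sum of 5 to 7 and just outside it 751 cells with a sum of 3 to 5, while 2916 monocytes (31.9%) had a single Csf1r UMI. At the C1q limit, 180 monocytes lay between 1 and 3 and 37 cells between 3 and 5. The cells excluded by C1q alone carried macrophage transcripts, with Apoe at 8282 CPM, Trem2 at 394 CPM and the mannose receptor Mrc1 at 252 CPM, against 486, 26.1 and 15.0 CPM in the monocytes. A further 5863 cells met every criterion but had no Csf1r UMI, and these carried the B-cell factor Ebf1 at 1651 CPM. They were shallower, with median depths of 2693 to 4411 UMIs per library, against 12938 to 19184.5 UMIs in the monocytes. With the chosen monocytes reduced to 2000 UMIs per cell, a Csf1r UMI was left in 30.8% to 33.3% of them per library. How many of the 5863 cells were monocytes without a captured Csf1r transcript was not tested.

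One library stood apart from the others. In TOE 4d 24h the summed haemoglobin and erythroid transcripts of the monocytes came to 48.3 CPM, against 973 to 2798 CPM in the other 7 libraries, and in its other cells to 320 CPM, against 8485 to 21841 CPM. Its summed neutrophil transcripts in monocytes, without the proteases of the rule, were the highest (10294 CPM, against 4859 to 8701 CPM), it held the fewest UMIs in all and it had the fewest monocytes. In its other cells the neutrophil transcripts, proteases included, summed to 83898 CPM, against 24946 to 42295 CPM. The part of these differences in the results for that library was not tested, and the genes described in full are given with their levels in all 8 libraries. Library pairs shared 0 to 2 monocyte barcodes. Doublet scores above 0.25 fell on 3.33% to 8.18% of monocytes and 2.27% to 4.24% of all cells, and 624 monocytes (6.82%) carried the B-cell receptor genes Cd79a and Cd79b at 5 or more per 10000.

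The share of monocytes was highest in TOE 4d 4h and lowest in TOE 4d 24h. They made up 7.01, 8.06, 7.17 and 6.32% of cells in the TO libraries and 7.15, 9.14, 14.6 and 4.36% in the TOE libraries, with counts of 1017, 1235, 913, 892, 1211, 1320, 2024 and 537. The 4 TO libraries thus spanned 6.32% to 8.06%, and of the 4 TOE libraries 2 lay above that range and 1 below it. TOE over TO, the share ratio was 0.886 (0.818 to 0.960) in the 2d 4h pair, 2.04 (1.88 to 2.21) in the 4d 4h pair and 0.689 (0.618 to 0.767) in the 4d 24h pair. Among cells of at least 10000 UMIs, a choice made after seeing the data, the 4d 24h ratio was 0.832. A share of recovered cells cannot tell more monocytes from fewer cells of other types.

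**Figure D1:**
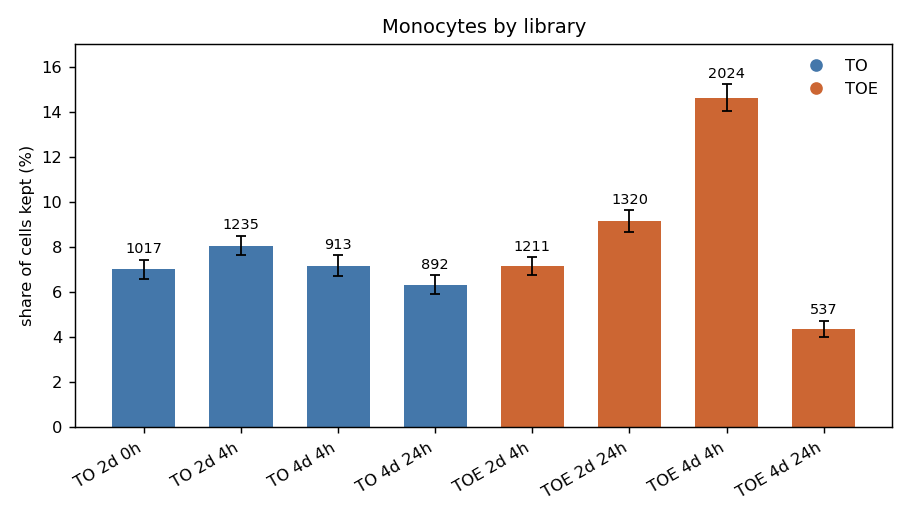
Monocytes as a percentage of the cells kept in each library (bars, in %), with exact 95% binomial intervals as error bars and the number of monocytes above each bar. The TOE 4d 4h bar stands at 14.6% and the TOE 4d 24h bar at 4.36%, and the 4 TO bars lie between 6.32% and 8.06%.

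The widest differences between TOE and TO monocytes were at 4d 24h, where chemokine, NF-kB feedback and MHC class II genes were lower in TOE. A gene was measured in a pair with at least 50 UMIs over both libraries and called past 2-fold. Of 11615 genes measured, 1372 were higher (11.8%) and 725 lower (6.24%) in TOE 4d 24h, with a median log2 ratio over all genes of 0.16. Scaling by that median left 1040 higher and 903 lower, so the higher genes went from 65.4% to 53.5% of the calls. With cells thinned to 2000 UMIs and the rule applied again, 204 were higher and 385 lower (34.6% higher), which turned the balance. The minimum of 50 UMIs was kept, so fewer genes were measured in thinned cells, here and in the comparisons below. Without thinning, the higher genes were 69.1% of the calls at a minimum of 20 UMIs and 55.5% at 200. The parts of depth and of the genes measured in the turn were not tested. Of 13 chemokine genes measured, 11 were lower and 0 higher, with a median log2 ratio of -2.20, and for the same genes in all other cells the median was -2.49. The chemokine transcripts of the monocytes summed to 5765, 4125, 3602 and 2947 CPM in the TO libraries and 3211, 4531, 3704 and 585 CPM in the TOE libraries, so TOE 4d 24h held the lowest sum of the 8 libraries.

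Ccl2, the ligand that draws Ccr2-bearing monocytes, was at 1085, 813, 908 and 618 CPM in the TO libraries and 772, 652, 599 and 61.7 CPM in the TOE libraries. TOE 4d 24h was thus 10.0-fold lower (95% interval 9.20 to 10.9) than its partner and below the other 7 libraries, which spanned 599 to 1085 CPM. Cxcl1, which draws neutrophils, was at 808, 500.2, 293 and 214 CPM in the TO libraries and 347, 507, 481 and 12.3 CPM in the TOE libraries, 17.3-fold lower (95% interval 14.4 to 21.0) in TOE at 4d 24h. For Cxcl1, TO 4d 24h was itself the lowest of the other 7 libraries. Further lower chemokines were Ccl7 at 11.9-fold (9.78 to 14.5), Ccl4 at 17.3-fold (9.52 to 35.0), Cxcl16 at 15.7-fold (9.02 to 29.8), Cxcl3 at 10.2-fold (8.70 to 11.9) and Ccl3 at 4.51-fold (4.32 to 4.72). In the other cells of these libraries the log2 ratio was -3.52 for Ccl2 and -3.14 for Cxcl1, against -3.32 and -4.11 in monocytes.

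Cytokines differed in both directions. Il1b, the secreted cytokine that starts the acute-phase response, was at 538, 846, 424 and 236 CPM in the TO libraries and 841, 539.6, 645 and 27.7 CPM in the TOE libraries, 8.53-fold lower (95% interval 7.52 to 9.72) in TOE at 4d 24h and outside the 236 to 846 CPM of the other 7 libraries. Il1a was 10.1-fold lower (95% interval 6.18 to 17.6), Tnf 4.88-fold lower (95% interval 3.96 to 6.08) and Il18 4.47-fold lower (95% interval 3.55 to 5.70). By contrast, Il6 at 8.42, 23.1, 14.1 and 1.49 CPM in the TO libraries and 20.3, 6.07, 27.8 and 8.51 CPM in the TOE libraries was 5.71-fold higher (95% interval 3.49 to 9.72), and Osm, another ligand of the gp130 receptor family, was 3.73-fold higher (95% interval 3.32 to 4.21). With Il15, 3 of the 7 cytokine genes measured were higher and 4 lower. For Il6, TO 4d 24h was the lowest of the 8 libraries, and TOE 4d 24h lay near TO 2d 0h and below every 4 h library. Nos2, the inducible nitric oxide synthase used as an M1 macrophage marker, was at 401, 297, 186 and 101 CPM in the TO libraries and 386, 185, 289 and 15.8 CPM in the TOE libraries, 6.42-fold lower (95% interval 5.41 to 7.65) in TOE at 4d 24h.

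Feedback genes of NF-kB, which NF-kB itself turns on and which then restrain it, were also lower: 7 of 13 past 2-fold and 0 higher, median log2 -1.42 in monocytes and -1.54 in other cells. Nfkbia, the inhibitor that holds NF-kB in the cytoplasm, was at 1285, 2729.6, 2401 and 1110.4 CPM in the TO libraries and 2099.9, 1463, 2863 and 387 CPM in the TOE libraries, 2.87-fold lower (95% interval 2.77 to 2.97) in TOE at 4d 24h. Its 4 h libraries lay at 2100 to 2863 CPM, above the 0 h and 24 h libraries in both groups. Tnip3 was 15.8-fold lower and the ribonuclease Zc3h12a 5.31-fold lower, and Tnfaip3, which codes for the deubiquitinase A20, had a log2 ratio of -0.61 and did not pass 2-fold.

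The promoters of Cxcl1, Ccl7 and Nfkbia, which were lower in TOE 4d 24h, and of Hsph1, which was higher, are printed here as examples. Each holds a match to the letters of the NF-kB motif or of the heat shock element, as do other genes that are not printed. They are RefSeq sequences of assembly GRCr8, not the build of the count files, and run from 250 bases before to 50 bases after the start of the gene, 5′ to 3′ on the gene's strand, with the match in capitals. For Cxcl1 (chr14:17479272-17479571, minus strand) the capitals mark 2 overlapping matches to GGGANNTTCC or its reverse complement GGAANNTCCC, 84 and 83 bases before the start. For Ccl7 (chr10:67513845-67514144, plus strand) and Nfkbia (chr6:78597023-78597322, minus strand) they mark 1 such match each, 59 and 31 bases before the start. For Hsph1 (chr12:10427118-10427417, plus strand) they mark 1 match to the heat shock element GAANNTTCNNGAA or its reverse complement TTCNNGAANNTTC, 36 bases before the start.
Cxcl1: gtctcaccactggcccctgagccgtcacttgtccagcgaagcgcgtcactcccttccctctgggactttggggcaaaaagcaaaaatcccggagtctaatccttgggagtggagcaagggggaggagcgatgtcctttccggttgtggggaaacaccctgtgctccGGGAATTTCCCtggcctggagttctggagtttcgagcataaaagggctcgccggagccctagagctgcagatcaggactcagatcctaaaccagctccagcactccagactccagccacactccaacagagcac
Ccl7: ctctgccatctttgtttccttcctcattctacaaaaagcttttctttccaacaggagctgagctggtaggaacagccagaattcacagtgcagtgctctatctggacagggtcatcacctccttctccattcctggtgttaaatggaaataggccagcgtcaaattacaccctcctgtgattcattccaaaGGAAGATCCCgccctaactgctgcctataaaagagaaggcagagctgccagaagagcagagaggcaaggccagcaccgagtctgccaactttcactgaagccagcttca
Nfkbia: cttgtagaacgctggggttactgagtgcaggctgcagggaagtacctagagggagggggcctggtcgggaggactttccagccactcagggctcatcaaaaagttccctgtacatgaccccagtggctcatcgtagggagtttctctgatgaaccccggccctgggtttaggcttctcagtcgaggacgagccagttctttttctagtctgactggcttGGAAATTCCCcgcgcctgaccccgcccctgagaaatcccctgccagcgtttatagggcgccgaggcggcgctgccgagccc
Hsph1: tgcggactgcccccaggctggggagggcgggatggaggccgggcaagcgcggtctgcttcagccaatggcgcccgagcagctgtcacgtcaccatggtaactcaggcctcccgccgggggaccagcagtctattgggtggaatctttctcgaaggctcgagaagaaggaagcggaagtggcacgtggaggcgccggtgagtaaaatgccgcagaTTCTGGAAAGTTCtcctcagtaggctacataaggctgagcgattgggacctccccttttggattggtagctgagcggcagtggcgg
Both strands were searched. The NF-kB letters were in 435 of 33469 promoters of this length (1.30%), in 3 of the 12 chemokine genes with a promoter in the table (Ccl7, Cxcl1 and Cxcl10), in 1 of 10 inflammatory cytokine genes (Il6) and in 4 of 11 NF-kB feedback genes (Nfkb2, Nfkbia, Nfkbiz and Tnfaip3). Not all of these genes were lower in TOE 4d 24h, since Il6 was higher and Tnfaip3 did not pass 2-fold. The heat shock letters were in 267 promoters (0.798%) and in 5 of 11 heat shock genes (Dnaja1, Hspa8, Hspd1, Hspe1 and Hsph1). A match describes these letters and is neither a binding site nor a cause, and the absence of one says only that the letters are not in this window.

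Receptors of the innate response were lower for some members and not for others. Cd14 was at 528, 334, 241 and 315 CPM in the TO libraries and 338, 406, 332 and 39.3 CPM in the TOE libraries, 8.01-fold lower (95% interval 7.21 to 8.94) in TOE at 4d 24h, with 241 to 528 CPM in the other 7 libraries. Tlr2, which pairs with Cd14, was 6.75-fold lower (95% interval 5.91 to 7.72), and the C-type lectins Clec4d and Clec4e, which bind mycobacterial glycolipid, were 6.40-fold lower and 6.35-fold lower. In other cells the log2 ratios of Tlr2, Clec4d and Clec4e were -0.85, -0.13 and -0.73, against -2.75, -2.68 and -2.66 in monocytes. Of 20 phagocytic and Fc receptor genes measured, 6 were lower and 0 higher, and Tlr4 had a log2 ratio of 0.51. The integrin Itgam was 2.40-fold lower (95% interval 2.17 to 2.66) in monocytes while its log2 ratio in other cells was 1.21. The other cells are a mixture, and their summed neutrophil transcripts were 83898 CPM in TOE 4d 24h and 31934 CPM in TO 4d 24h. The part of that mixture in these ratios of other cells was not tested, so they do not show a difference particular to monocytes. Transcripts of MHC class II genes were lower too, with 5 of 8 genes past 2-fold and 0 higher: RT1-Da was 3.33-fold lower (95% interval 3.02 to 3.67) and the invariant chain Cd74 2.58-fold lower (95% interval 2.44 to 2.73), and the median of the class in other cells was -1.12. RT1 genes have near-identical relatives, so reads may have been split between them.

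Most classical monocyte genes did not pass 2-fold at 4d 24h. Of the 9 measured that the rule did not use, 0 were higher and 2 lower (Cd14 and Thbs1), median log2 0.10. Ly6c was at 534, 556, 515 and 453 CPM in the TO libraries and 559.5, 489.9, 672 and 464 CPM in the TOE libraries. Lyz2, the lysozyme of myeloid cells, lay at 18299.5 to 28995 CPM over the 8 libraries. Ccr2 and Csf1r, by which the cells were chosen, lay at 262 to 453 CPM and 157 to 189 CPM, given as a description. Irf8, a transcription factor that sets the monocyte and dendritic lineages, was at 62.2, 56.2, 73.2 and 100.3 CPM in the TO libraries and 62.5, 89.6, 53.1 and 159.7 CPM in the TOE libraries, 1.59-fold higher (95% interval 1.48 to 1.71) in TOE at 4d 24h. Klf4 had a log2 ratio of -1.25 and Spi1, the myeloid factor PU.1, of -0.21.

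A few stress and growth-response genes were higher in TOE 4d 24h. Hsph1, a chaperone of the heat shock response, was at 327, 477, 1424 and 444 CPM in the TO libraries and 736, 275, 969.8 and 2653 CPM in the TOE libraries, 5.98-fold higher (95% interval 5.81 to 6.15) than its partner, with a log2 ratio of 0.53 in other cells against 2.58 in monocytes. The co-chaperone Bag3 was 3.56-fold higher (95% interval 3.33 to 3.80). These were 2 of 14 heat shock genes, beside 11.8% of all genes called higher in this pair, none passed 2-fold in the lower direction, and the list's transcripts summed to 1.50 times the TO level, with a median log2 of 0.43. Fos, an immediate-early transcription factor, was at 347, 517, 903 and 283 CPM in the TO libraries and 528, 639, 802 and 1428 CPM in the TOE libraries, 5.04-fold higher (95% interval 4.87 to 5.23) in TOE at 4d 24h (log2 0.0099 in other cells). Egr1 was 4.27-fold higher (95% interval 3.95 to 4.61), Jun 2.42-fold higher and Nr4a1 2.42-fold higher. Of 24 immediate-early genes measured, these 4 were higher and 6 lower, among them Egr3 at 6.28-fold lower and Ier5 at 3.97-fold lower.

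Secreted factors split. Vegfa, the main angiogenic factor, was 5.43-fold lower (95% interval 4.50 to 6.60) in TOE at 4d 24h (130.1, 141, 152 and 71.1 CPM in the TO libraries and 132, 138, 112 and 13.1 CPM in the TOE libraries). Thbs1, a matrix glycoprotein that activates latent TGF-beta, was 7.17-fold lower (95% interval 5.72 to 9.11). Spp1, which codes for osteopontin, was at 1311, 467, 1000.5 and 8.03 CPM in the TO libraries and 176, 1227, 706 and 115 CPM in the TOE libraries. It was 14.3-fold higher (95% interval 11.8 to 17.5) in TOE at 4d 24h, and this rests on the low level of TO 4d 24h, since each of the remaining 6 libraries lay above both. Retn, which codes for the hormone resistin, was at 2.91, 1.18, 1.73 and 0.853 CPM in the TO libraries and 4.47, 57.2, 4.23 and 91.3 CPM in the TOE libraries, 107-fold higher (95% interval 61.0 to 208). Each of the 9 erythroid genes measured was lower and 6 of 8 neutrophil genes outside the rule were higher (median log2 1.16 in monocytes and 1.42 in other cells), and their part in the differences for Retn and Mmp9, which neutrophils also carry, was not tested. Mmp9 was 2.77-fold higher (95% interval 2.07 to 3.73) in monocytes.

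**Figure D2:**
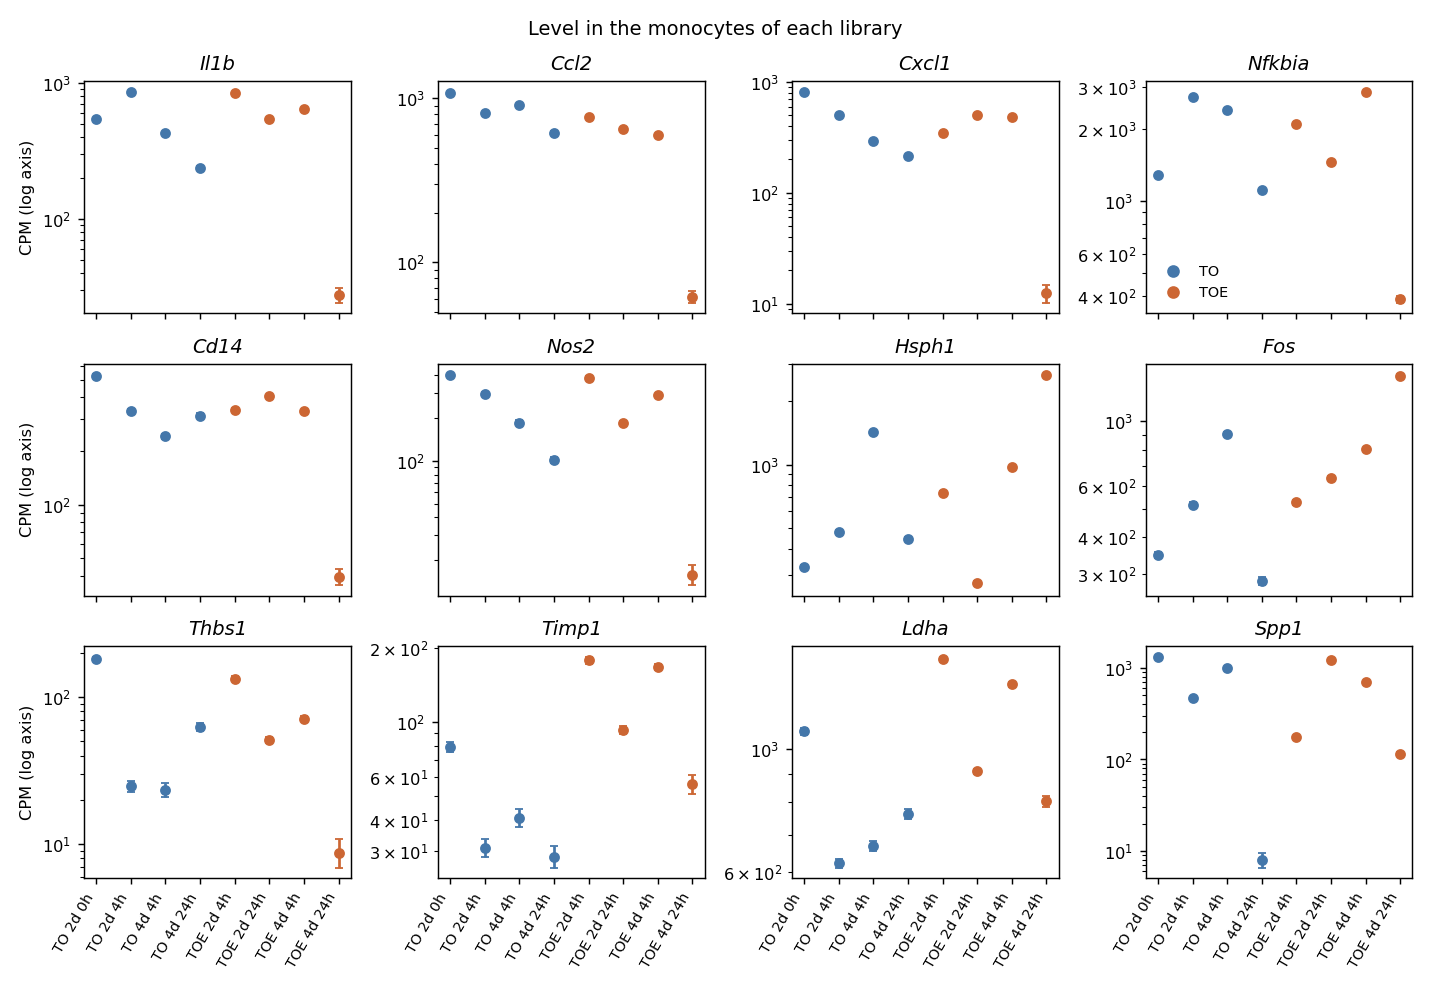
Levels of 12 genes in the monocytes of each library, in CPM on a log axis, with exact 95% Poisson intervals. TOE 4d 24h is the lowest point for Il1b (27.7 CPM), Ccl2 (61.7 CPM), Cxcl1 (12.3 CPM), Nfkbia (387 CPM), Cd14 (39.3 CPM), Nos2 (15.8 CPM) and Thbs1 (8.73 CPM) and the highest for Hsph1 (2653 CPM) and Fos (1428 CPM).

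The lower levels went with fewer monocytes that held a transcript. To compare libraries at 1 depth, each cell was thinned to 2000 UMIs, which kept 524 (TOE 4d 24h) to 1967 monocytes per library. An Il1b UMI was then found in 40.1, 53.5, 32.7 and 27.1% in the TO libraries and 43.1, 41.9, 39.2 and 3.63% in the TOE libraries. Cells of the B lineage, chosen by Cd79a and Cd79b of at least 10 per 10000 in sum and taken as cells that should lack these genes, had an Il1b UMI in 0.297% to 4.55%. In TOE 4d 24h the share was 3.63% of monocytes and 0.297% of B-lineage cells, and in TO 4d 24h it was 27.1% and 1.75%. Without thinning, the monocyte shares ran from 7.82% to 76.7% and the B-lineage shares from 0.749% to 11.1%, at median depths of 12938 to 19184.5 and 4140 to 4878 UMIs.

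A Ccl2 UMI was found in 57.7, 53.4, 48.1 and 46.1% in the TO libraries and 40.4, 47.5, 42.0 and 5.15% in the TOE libraries of thinned monocytes and in 0.181% to 3.45% of B-lineage cells. For Cd14 the shares were 56.0, 42.3, 33.4 and 48.2% in the TO libraries and 40.5, 48.3, 39.8 and 6.30% in the TOE libraries, and 0.0659% to 1.88% in B-lineage cells. TOE 4d 24h was the lowest library for both genes, and its shares (5.15% and 6.30%) lay above its own B-lineage shares (0.181% and 0.0659%). The B-lineage shares were lowest in that library too, against 1.17% and 0.570% in TO 4d 24h. Without thinning, the Ccl2 and Cd14 shares in that library were 12.8% and 32.2%, with 0.514% and 0.206% of B-lineage cells. Ly6c did not follow them: a UMI was found in 58.7, 60.8, 58.1 and 59.6% in the TO libraries and 59.5, 58.0, 64.5 and 54.8% in the TOE libraries. In the same thinned monocytes the log2 ratio at 4d 24h was -3.22 for Il1b, -2.72 for Ccl2, -3.93 for Cxcl1 and 2.31 for Hsph1. Where the rule was applied again to thinned cells, 3044 cells met it, 2709 of them members, and the log2 ratios of Ccl2 and Cxcl1 were -1.40 and -2.35.

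**Figure D3:**
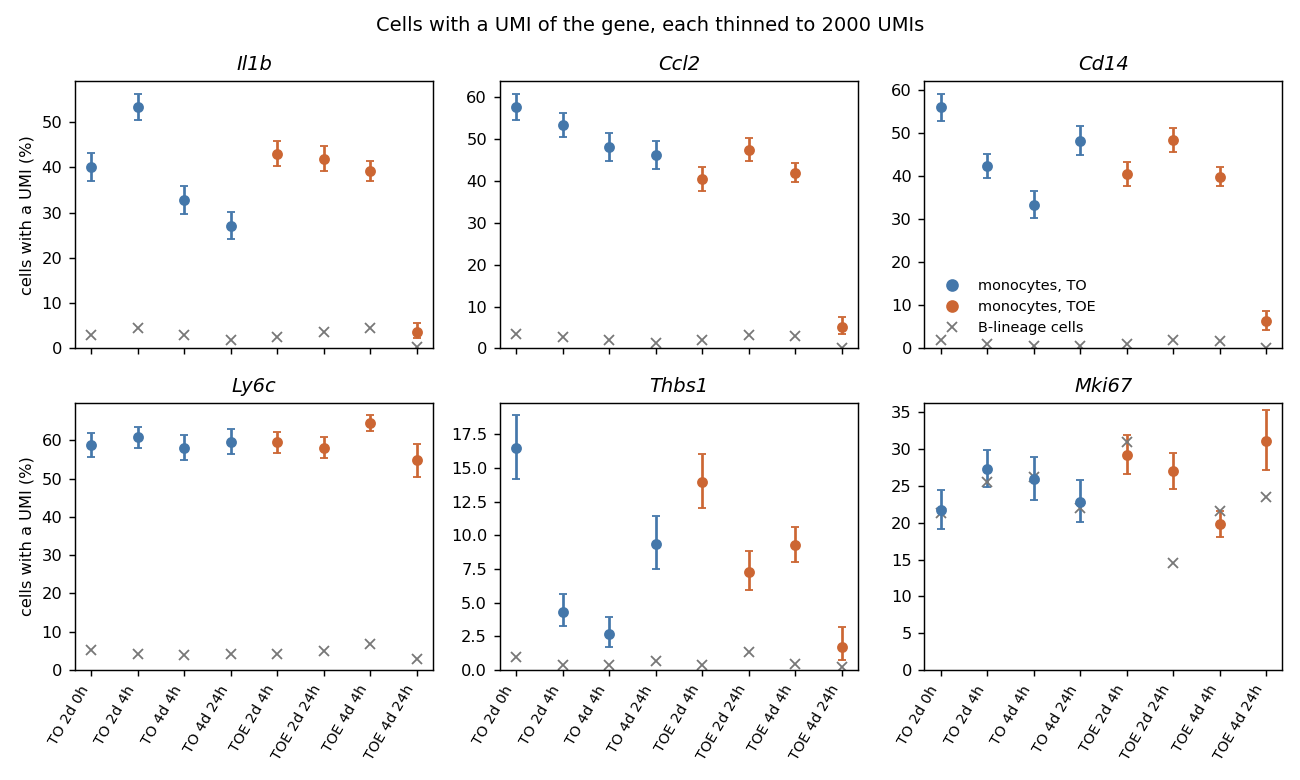
Percentage of monocytes with at least 1 UMI of Il1b, Ccl2, Cd14, Ly6c, Thbs1 and Mki67 in each library after thinning every cell to 2000 UMIs, with exact 95% binomial intervals, and the same percentage in B-lineage cells (crosses). In TOE 4d 24h the monocyte points for Il1b (3.63%), Ccl2 (5.15%) and Cd14 (6.30%) lie far below those of the other 7 libraries, and an Mki67 UMI was found in 19.8% to 31.1% of monocytes and 14.5% to 31.0% of B-lineage cells.

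Leaving out the monocytes with cycle transcripts (2 or more per 10000 UMIs over 7 genes, chosen after seeing the data) moved several of these values by more than 1.5 times without turning their direction. In the cells left out, 3988 of 16046 genes (24.9%) had a higher CPM than in the other monocytes in all 8 libraries and 2038 (12.7%) a lower one. Without them the log2 ratio at 4d 24h was -2.38 for Ccl2, -2.72 for Cxcl3, -1.95 for Nos2, -3.58 for Thbs1 and 5.33 for Spp1. With the rule applied again to thinned cells it was -1.76 for Cxcl3, -1.82 for Nos2, 5.60 for Spp1, -2.23 for Nfkbia, 1.56 for Fos and 1.55 for Hsph1, and Vegfa, at -0.96, no longer passed 2-fold, whereas in the thinned members themselves it was -2.35.

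At 4 h after treatment the pairs (2d 4h and 4d 4h, called day 2 and day 4 here) differed far less. Among the growth and matrix genes, Thbs1, Timp1, Tgfbi and Ereg were higher in TOE on both days, while the list as a whole went both ways. On day 2, 426 of 12516 genes measured were higher (3.4%) and 345 lower (2.76%) in TOE. On day 4, 231 of 13249 were higher (1.74%) and 381 lower (2.88%). The median log2 ratio over all genes was 0.11 on day 2 and -0.078 on day 4. Scaling by it gave 305 higher and 463 lower on day 2, so the higher genes went from 55.3% to 39.7% of the calls, and 276 and 324 on day 4, from 37.7% to 46.0%. With cells thinned to 2000 UMIs and the rule applied again, the higher genes were 60.6% and 61.7% of the calls. The balance of the calls on day 2 therefore turned with the scaling and that on day 4 with the thinning, and list medians between 0 and the median of all genes turned with the scaling.

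Thbs1 was at 182, 24.7, 23.3 and 62.6 CPM in the TO libraries and 133, 51.0, 71.0 and 8.73 CPM in the TOE libraries. TOE was 5.40-fold higher (95% interval 4.90 to 5.96) on day 2 and 3.05-fold higher (95% interval 2.72 to 3.42) on day 4, while in other cells the log2 ratios were -0.19 and -0.70. The levels in TO 2d 0h and TO 4d 24h lay within or above the TOE range, and only TOE 4d 24h lay below the TO libraries of 4 h. A Thbs1 UMI was found in 16.5, 4.33, 2.66 and 9.33% in the TO libraries and 14.0, 7.27, 9.25 and 1.72% in the TOE libraries of thinned monocytes and 0.231% to 1.34% of B-lineage cells.

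Timp1, an inhibitor of matrix metalloproteinases, was at 79.3, 30.9, 40.9 and 28.4 CPM in the TO libraries and 179, 92.7, 167 and 56.0 CPM in the TOE libraries. TOE was 5.78-fold higher (95% interval 5.30 to 6.31) on day 2 and 4.09-fold higher (95% interval 3.76 to 4.46) on day 4, with log2 ratios of 0.59 and 0.90 in other cells. Tgfbi, a collagen-binding protein induced by TGF-beta, was at 62.4, 75.7, 97.3 and 29.4 CPM in the TO libraries and 159, 63.2, 195 and 34.2 CPM in the TOE libraries and 2.10-fold higher (95% interval 1.97 to 2.23) on day 2 and 2.00-fold higher (95% interval 1.89 to 2.12) on day 4, with log2 ratios of -0.025 and -0.43 in other cells. Its 4 h libraries lay above every 0 h and 24 h library in both groups. Of the growth and matrix genes, without Fn1 and F13a1 of the rule, 4 were higher and 3 lower of 22 on day 2, and 5 and 2 of 23 on day 4. Ereg, a ligand of the EGF receptor, completed the set that passed 2-fold on both days with log2 ratios of 1.56 and 1.72 (0.23 and 1.59 in other cells). The list medians were -0.12 and -0.22, and the summed transcripts were 0.919 and 0.978 times the TO level.

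Some glycolytic genes were higher in TOE on day 2, and none passed 2-fold on day 4. Ldha, which makes lactate, was at 1075, 621, 667 and 762 CPM in the TO libraries and 1450.1, 910.0, 1306 and 803 CPM in the TOE libraries, 2.33-fold higher (95% interval 2.29 to 2.38) on day 2 and 1.96-fold higher (95% interval 1.92 to 2.00) on day 4. In other cells its log2 ratios were 0.60 and 0.69, against 1.22 and 0.97 in monocytes. Gapdh had log2 ratios of 0.72 and 0.75, Pgam1 of 0.93 and 0.67, and Bnip3, a mitophagy receptor induced by hypoxia, of 1.34 and 0.75. Of the hypoxia and glycolysis genes, 4 of 21 passed 2-fold on day 2 and 0 of 22 on day 4, none lower, and their summed transcripts were 1.55 and 1.50 times the TO level. The list medians were 0.55 and 0.27, and 0.44 and 0.35 after scaling by the median of all genes.

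Chemokine receptors and interferon genes differed in single members. Of 12 chemoattractant receptors outside the rule, 3 were higher on day 2, Cx3cr1 and Cxcr2 among them, and on day 4 1 was higher and 1 lower (Fpr1, the receptor for bacterial formyl peptides). Oscar, a co-stimulatory receptor of osteoclast precursors, had log2 ratios of 1.54 and 1.67. Oas1a, an interferon-induced sensor of double-stranded RNA with close paralogues, had 2.17 and 2.14. Of the interferon genes, 5 were higher and 1 lower of 20 on day 2, and 1 higher and 3 lower of 21 on day 4, with medians of 0.26 and -0.58. Isg15 and Mx1 were among the lower genes on day 4 (log2 -1.43 and -1.54) and had log2 ratios of 0.63 and 0.59 on day 2.

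The inflammatory lists showed no difference at 4 h of the size seen at 4d 24h. Of 14 chemokine genes, 0 were higher and 3 lower on day 2 (Ccl9, Ccl12 and Pf4). On day 4, 2 were higher (Cxcl3 and Pf4) and 1 lower (Ccl6), with medians of -0.64 and -0.026. Of the inflammatory cytokines, 1 of 11 was higher and 1 lower on day 2 and 0 of 10 on day 4. No NF-kB feedback or immediate-early gene passed 2-fold in either pair, but on day 2 the log2 ratio of each of the 13 NF-kB feedback genes was below 0 (median -0.47, -0.61 in other cells), and 4 of 24 immediate-early genes lay above 0 (median -0.43, -0.82 in other cells). Il1b had log2 ratios of -0.0086 on day 2 and 0.61 on day 4, and Nos2 of 0.38 and 0.64. Heat shock genes had medians of 0.38 and -0.19, with 1 of 14 higher on day 2 (Hspb1), and Hsph1 log2 ratios of 0.62 and -0.55. Cell cycle genes had medians of 0.34 and -0.13.

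**Figure D4:**
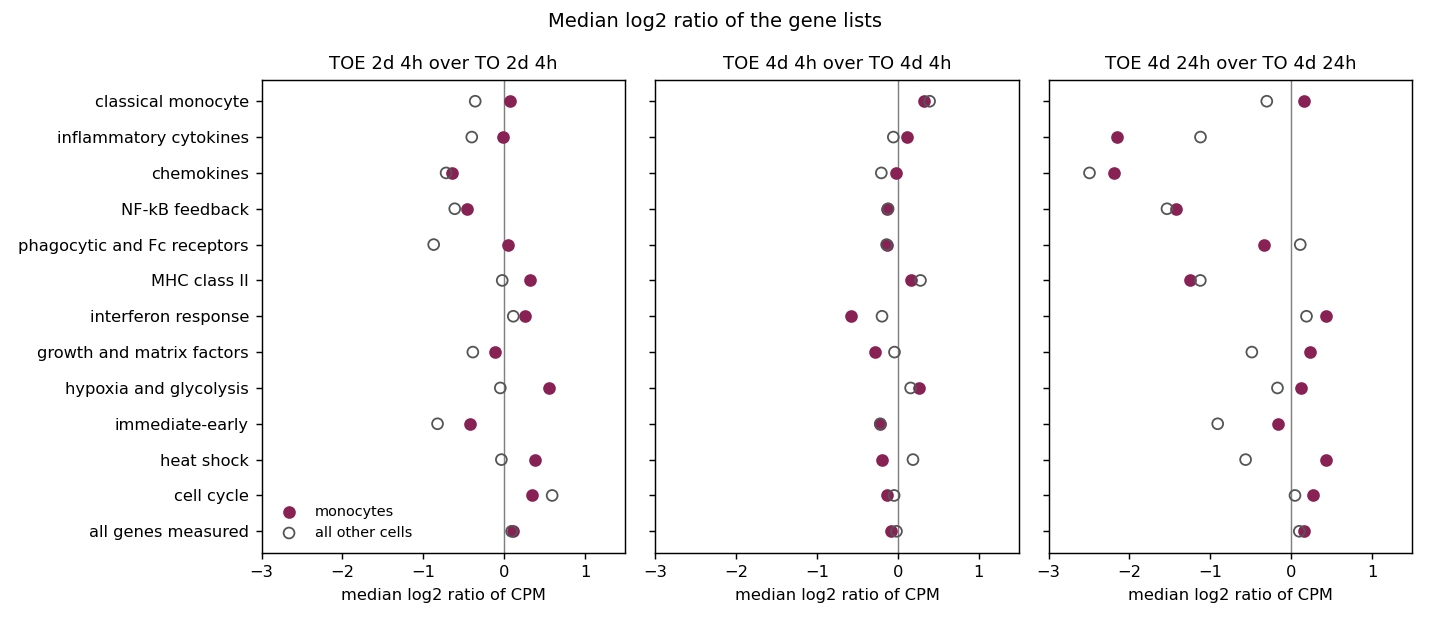
Median log2 ratio of TOE over TO for 12 gene lists and for all genes measured, in the 3 matched pairs, in monocytes (filled) and in all other cells (open), with the genes of the rule kept in the classical monocyte and growth lists. Chemokines stand at -2.20 at 4d 24h against -0.64 and -0.026 at 4 h, and medians between 0 and that of all genes (0.11, -0.078 and 0.16) change sign when scaled by it, as glycolysis does at 4d 24h (0.12 to -0.037).

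The other lists are given beside the shares of all genes past 2-fold. These shares were 3.4% higher and 2.76% lower on day 2, 1.74% and 2.88% on day 4, and 11.8% and 6.24% at 4d 24h. Of 20 and 21 phagocytic and Fc receptor genes, 2 were higher and 1 lower on day 2 and 0 on day 4. Of 9 genes of osteoclasts and RANK signalling outside the rule, 1 was higher and 1 lower in each pair of 4 h. The M1 and M2 markers used by the study had 1 of 4 lower on day 2 (Mrc1) and 0 of 4 on day 4. Of 14 genes of purine receptors and p38 signalling, 0 passed in either pair of 4 h and 5 were higher and 4 lower at 4d 24h, among them P2ry12 (log2 1.91) and the adenosine receptor Adora2a (log2 -2.44). Vesicle markers had 1 of 7 higher on day 2 (Flot1), with all 7 above 0, a median log2 of 0.53 and 1.61 times the summed TO level, and 0 of 7 on day 4 (median 0.12), with Cd63 at log2 0.89, 0.76 and -1.15 over the 3 pairs. Circadian clock genes had 2 of 13 and 1 of 14 lower at 4 h, and 1 higher and 2 lower of 13 at 4d 24h.

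Several of the largest single differences were in genes known from other cell types. On day 2 the highest ratios included Ccl5, a chemokine of T cells, at 17.3-fold higher (95% interval 8.57 to 40.9), and 4 of 5 plasma-cell genes were higher (median log2 1.66, 0.54 in other cells). The lowest ratios there included Nqo2 (log2 -4.97) and the bone sialoprotein gene Ibsp (log2 -3.98). On day 4 the highest ratios included the platelet genes Clec1b, Treml1 and Tubb1 and the neuropeptide gene Npy. Treml1 was at 53.9-fold (9.51 to 2145), Tubb1 at 51.9-fold (9.15 to 2066) and Npy at 134-fold (36.8 to 1105) above a TO level of 1 to 3 UMIs, and the platelet chemokine Pf4 was 3.14-fold higher (95% interval 2.92 to 3.37). The secreted ribonuclease Rnase1 had the lowest ratio, with 0 UMIs in TOE and 85 in TO, and 3 of 4 mast cell and basophil genes were lower. At 4d 24h the lowest ratios included Hba-a1, Hbb-b1 and Hbb-b2, and the highest included Retn and the collagens Col6a1 and Col6a3. Erythroid transcripts in the monocytes summed to 973 CPM in TOE and 1749 CPM in TO on day 2, and to 1449 and 2798 CPM on day 4. Neutrophil transcripts outside the rule summed to 1.46 and 1.73 times the TO level on these days, with 1 of 8 genes past 2-fold on each. The part of transcripts from other cells in the values of these pairs was not tested.

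Over all 8 libraries, the monocytes of TOE were separated from those of TO by few genes. The 4 TOE libraries all lay above the 4 TO libraries for 333 of 16046 genes (2.08%) and all below for 209 (1.3%), and without TOE 4d 24h for 587 and 352. Ranges of fewer libraries separate more easily, so the counts without it cannot be set against those of all 8 libraries. Of 387 genes of the lists outside the rule, 10 were higher (2.58%) and 9 lower (2.33%). The share of higher genes is close to that over all genes (2.08%), and the share of lower genes is above it (1.3%). With so few genes, no result about the lists is drawn from these counts, and the values that follow are a description. S100a9, an alarmin of neutrophils and monocytes, was at 3182, 2634, 2658 and 2341 CPM in the TO libraries and 4134, 5045, 4462 and 4918 CPM in the TOE libraries, a gap of 1.30-fold between the groups. Its partner S100a8 was at 2547, 2106, 1427 and 2039 CPM in the TO libraries and 2934, 2751, 3388 and 4232 CPM in the TOE libraries, a gap of 1.08-fold. Neutrophil transcripts in the monocytes, without the proteases of the rule, summed to 6099, 5225, 5031 and 4859 CPM in the TO libraries and 7653, 8255, 8701 and 10294 CPM in the TOE libraries, also without overlap, and their part in S100a8, S100a9, Cxcr2 and Retn was not tested. Lyz2 was at 20899, 18299.5, 19686 and 21119 CPM in the TO libraries and 27365, 24146, 28995 and 27581 CPM in the TOE libraries, and Cx3cr1 at 5.42, 4.42, 7.82 and 4.12 CPM in the TO libraries and 9.00, 8.57, 8.77 and 10.9 CPM in the TOE libraries, gaps of 1.14-fold and 1.10-fold. Lower in TOE were Ccl6, a CC chemokine of myeloid cells, at 41.9, 38.9, 62.8 and 58.1 CPM in the TO libraries and 23.1, 20.8, 23.8 and 31.7 CPM in the TOE libraries, and with smaller gaps Adgre4, Fcgr2a, Nfkbie, Hk1, Clec4d, Lamp1, Cxcl16 and Cry1 (1.01-fold to 1.23-fold).

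Grouping the libraries by hour of collection separated many more genes than grouping them by treatment. All 4 libraries of 4 h lay above the 4 libraries of 0 h and 24 h for 1488 of 16046 genes (9.27%) and below for 1570 (9.78%). Without TOE 4d 24h they lay above for 2868, a count that fewer libraries reach more easily. Of the same 387 list genes, 40 lay above (10.3%) and 19 below (4.91%). The share above is close to that over all genes, so it is no result about the lists. The genes named below are a description. The hour after treatment, the time of day and any difference in the handling of the libraries cannot be told apart here. Above at 4 h were Nr4a3, an immediate-early nuclear receptor (gap 1.97-fold), Il6 (1.66-fold), Nfkbia (1.44-fold), Ier3 (1.41-fold), the glycolytic Pkm (1.41-fold), Spi1 (1.38-fold), the high-affinity Fc receptor Fcgr1a (1.32-fold), the chemokine receptor Ccr1 (1.30-fold), Itgam (1.24-fold), Hif1a (1.22-fold), the urokinase receptor Plaur (1.14-fold) and the replication gene Pcna (1.26-fold). Nr4a3 was at 20.6, 70.8, 73.6 and 19.5 CPM in the TO libraries and 44.6, 22.7, 71.0 and 18.2 CPM in the TOE libraries. Below at 4 h were Aldoa, a glycolytic aldolase (3.82-fold), the further replication genes Mcm6 (1.36-fold) and Mcm3 (1.09-fold), Stmn1 (1.37-fold), Hmgb2 (1.05-fold) and Atf3 (1.19-fold). Aldoa was low throughout, at 1.62 to 10.5 CPM over the 8 libraries, against 417 to 1056 CPM for Pkm. The bone gene Bglap (5.73-fold), Col1a1 and the basophil gene Prss34 (9.83-fold) were below as well, and mesenchymal transcripts in the monocytes, without Col1a1, summed to 259, 63.3, 182 and 339.9 CPM in the TO libraries and 39.1, 551, 131 and 294 CPM in the TOE libraries.

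Between the first and the last TO library, macrophage-associated transcripts were lower in the last. From TO 2d 0h to TO 4d 24h, 111 of 12307 genes were higher (0.902%) and 587 lower (4.77%). With cells thinned to 2000 UMIs and the rule applied again, 50 were higher and 82 lower, so the higher genes went from 15.9% to 37.9% of the calls. Spp1 was 163-fold lower (95% interval 136 to 198) (log2 -7.35, against -1.37 in other cells), the lipid carrier Apoe 18.5-fold lower (95% interval 17.1 to 19.9) and Pf4 14.7-fold lower (95% interval 12.9 to 16.7). After thinning, an Spp1 UMI was found in 14.6% of monocytes and 7.17% of B-lineage cells in TO 2d 0h. In TO 4d 24h it was found in 1.59% and 1.21%. Of 10 resident macrophage genes measured, without the C1q genes that the rule limits, 9 were lower and 0 higher (median log2 -2.16), and 8 of 11 inflammatory cytokines, 10 of 15 chemokines, 13 of 22 growth and matrix genes and 6 of 9 osteoclast genes were lower, 0 higher in each, with the genes of the rule left out of these lists too. Heat shock genes had 2 higher, Hspa1a and Hspa1b (log2 2.09 and 1.92), which are near-identical copies. Day and hour both differ between these libraries.

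In TOE, TOE 4d 24h was set beside TOE 2d 24h at the same hour, so the day and the number of shock wave treatments, 1 by day 2 and 2 by day 4, differ together. Here 1543 of 12810 genes were higher (12.0%) and 1115 lower (8.7%), and after scaling by the median of all genes (0.13) 1203 and 1284. With the same thinning 320 were higher and 414 lower, so the higher genes went from 58.1% to 43.6% of the calls and the balance turned, as it did with the scaling. Chemokines were lower for 14 of 15 (median log2 -3.82, -3.63 in other cells), inflammatory cytokines for 7 of 11, resident macrophage genes without the C1q genes for 7 of 9, NF-kB feedback genes for 7 of 13 and phagocytic and Fc receptors for 9 of 21, 0 higher in each. Of the growth and matrix genes outside the rule, 2 of 22 were higher and 15 lower, and of the heat shock genes 6 of 14 were higher and 0 lower (median 0.88, -0.48 in other cells). Ccl2 was 10.6-fold lower (95% interval 9.73 to 11.5), Il1b 19.5-fold lower (95% interval 17.3 to 22.1), Cd14 10.3-fold lower (95% interval 9.32 to 11.5) and Hsph1 9.66-fold higher (95% interval 9.42 to 9.91). This comparison shares TOE 4d 24h with the pair at 4d 24h, and the preceding one shares TO 4d 24h with it, so their values stand side by side and are not independent.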

How the data were processed

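The authors deposited raw UMI count matrices per library (whole numbers of transcripts per gene and cell, not normalized), made from 10x Genomics Chromium reads, and the submitters' processing notes name Cell Ranger 9.0.0, Seurat, R 4.0.3 and the rat build mRatBN7.2. The submitters' design counts 9 rats for 9 samples, and no source used here says whether rats were pooled. The cells, gene lists and comparisons were chosen with earlier results of these data known, so none of them is independent support.

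Cells of 8 libraries (1 per condition, 1 labelled library not analysed here) were filtered and monocytes chosen as stated in the report. Their UMIs were summed per library over 41801 genes and divided by the sum to give CPM. Ratios used a prior of 0.5 UMI, needed at least 50 UMIs over both libraries and were called past 2-fold, with no test. Shares have exact Clopper-Pearson intervals, CPM exact Poisson intervals and ratios exact conditional intervals (95%). The genes named are those of the rule, its markers and 33 lists, the 5 highest and 5 lowest ratios of each pair and the 20 genes with the largest excess over other cells, apart from a few not reported here. Doublets were scored with Scrublet (scanpy 1.11.5, expected rate 8%, score 0.25) and kept, with their removal as an alternative. Scripts ran in Python 3.11.15 with numpy 2.4.6, scipy 1.17.1, pandas 2.3.3 and matplotlib 3.10.9 and were tested on simulated data. Alternatives covered the cell filter, the marker sum, the Csf1r and C1q limits (not those on proteases and Col1a1), doublets, depth, count minimum, prior and scaling.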

Additional observations from a re-analysis of the deposited data

Results flagged for a closer look

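Some genes passed 2-fold in opposite directions in different pairs of TOE over TO. These differences between pairs were not tested, and each value rests on 1 library on each side. Over the 2d 4h, 4d 4h and 4d 24h pairs, in that order, Thbs1 had log2 ratios of 2.43, 1.61 and -2.84. Cxcl3, which draws neutrophils, had 1.10 in the 4d 4h pair and -3.34 at 4d 24h, and the platelet chemokine Pf4 had -1.46, 1.65 and -1.42 over the 3 pairs. In the 4d 4h and 4d 24h pairs Fpr1 had -1.37 and 2.16, Mmp9 -1.15 and 1.46, the MHC class II gene RT1-Bb 2.59 and -2.12, and the lysosomal protease Ctsl 1.04 and -1.87. Spp1 had -1.41 in the 2d 4h pair and 3.83 at 4d 24h, and the scavenger receptor Msr1 had 1.19 and -1.08. Ifitm3, an interferon-induced membrane protein, had 1.72, -1.09 and 1.37. The share of monocytes also differed in direction, with ratios of 0.886, 2.04 and 0.689. Pf4, Ifitm3 and the share already differed in direction between the 2d 4h and 4d 4h pairs. The contrasts of the others take in 4d 24h, whose TOE library stood apart in its erythroid transcripts (48.3 CPM against 973 to 2798 CPM), and the part of that in them was not tested. For Fpr1, Mmp9 and RT1-Bb the log2 ratios in other cells were -0.79, -0.43 and 2.23 at 4d 4h and 2.26, 1.41 and -1.15 at 4d 24h, on the same side as in monocytes, and for Thbs1 they were -0.19, -0.70 and -1.27.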

How the results depend on the processing

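No pair could be repeated without a library, because each condition had 1. The labels give no replicate numbers, so no replicate block was used. A mean effect of TOE over the 3 times, with time as a block, could be fitted and was left out, since the pairs are described one by one. Of 587 recomputed values other than single genes, 40 are those of the report, 470 moved by less than their counting interval or a factor of 1.5 and 77 moved further. For single genes, 86 are values of the main setting, 985 moved by less and 294 moved further. None of the values, single genes included, turned from one called direction to the other. The alternatives without the Csf1r criterion, without cells with cycle transcripts, with cells of at least 10000 UMIs and without TOE 4d 24h were chosen after seeing the data. Counts below are genes past 2-fold and medians are log2 ratios of TOE over TO of whole lists, genes of the rule included, in the order 2d 4h, 4d 4h and 4d 24h where 3 are given.

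With cells thinned to 2000 UMIs and the rule applied again, 211, 95 and 204 genes were higher and 137, 59 and 385 lower, so the balance turned at 4d 4h (61.7% higher) and 4d 24h (34.6%). With at least 20 UMIs, 702, 450 and 2104 were higher and, at 4 h, 595 and 714 lower, and with at least 200 UMIs 177, 87 and 615 were higher and, at 4 h, 131 and 131 lower. Without the Csf1r criterion 564 were lower at 2d 4h, where the higher genes were then 40.3% of the calls, and without TOE 4d 24h the counts of genes with ranges apart were 2868 (4 h above), 587 and 352 (TOE above and below TO). Leaving out a library makes this criterion easier to meet, so these counts do not show what that library contributed.

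Thinning gave medians for inflammatory cytokines of -0.26, 0.62 and -3.04, for heat shock of 0.30, -0.23 and 0.12, for chemokines of -0.44 (2d 4h) and -1.87 (4d 24h), for growth and matrix factors of -0.52 and 0.14 and for glycolysis of 0.45 and 0.18 (2d 4h, 4d 4h), for interferon genes of 0.010 and -0.10 (4d 4h, 4d 24h) and for cell cycle of 0.75 (4d 24h). Scaling by the median ratio gave NF-kB feedback -0.58 (2d 4h) and -1.59 (4d 24h), heat shock 0.26, -0.11 and 0.27, glycolysis 0.44 (2d 4h) and -0.037 (4d 24h), immediate-early -0.54 (2d 4h) and cell cycle 0.11 (4d 24h). Without cells with cycle transcripts, cell cycle was 0.50 and 0.12 (2d 4h, 4d 4h), chemokines -0.45 (2d 4h), interferon genes 0.93 (4d 24h), and at 2d 4h and 4d 24h heat shock was 0.29 and 0.60, glycolysis 0.69 and 0.26, inflammatory cytokines 0.043 and -1.64, and the share ratio 0.746 and 0.472. With a marker sum of at least 10, NF-kB feedback was -1.60 (4d 24h), cell cycle 0.50 and 0.46 (2d 4h, 4d 24h), heat shock -0.24 and 0.50 (4d 4h, 4d 24h) and inflammatory cytokines -0.22 (2d 4h). Without the Csf1r criterion, glycolysis was 0.48 (2d 4h), heat shock -0.16 (4d 4h), inflammatory cytokines -1.72 (4d 24h) and the share ratio 0.786 and 1.81 (2d 4h, 4d 4h). With cells of at least 10000 UMIs, cell cycle was 0.13 (4d 24h), inflammatory cytokines 0.028 (2d 4h) and the share ratio 0.759 and 0.832 (2d 4h, 4d 24h). Without cells of high doublet score, chemokines were 0.30 (4d 4h) and heat shock 0.49 (4d 24h), with at least 2 Csf1r UMIs the share ratio was 0.960 (2d 4h), and at 4d 24h inflammatory cytokines were -1.19 with at least 20 UMIs, chemokines -3.33 with at least 200, and interferon genes -0.010 at 4d 4h with at least 200. The cause of these shifts was not tested.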

Other observations

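Monocytes with more cycle transcripts were read apart from the rest within each library. Of the 9149 monocytes, 3859 (42.2%) carried Mki67, Top2a, Cdk1, Ccnb1, Birc5, Ube2c and Cenpf at 2 or more per 10000 UMIs in sum, which is 40.5, 39.4, 38.1 and 40.2% of the monocytes in the TO libraries and 49.1, 46.3, 36.1 and 59.0% in the TOE libraries. This split used a score of expressed genes, so it is a range and not a type: 1383 cells lay just under the limit (1 to 2), 599 just over it (2 to 3), and 2440 had none of these transcripts. The cells over the limit were deeper, with median UMIs of 19323 to 27387 per library against 10904 to 15603, and had doublet scores above 0.25 in 4.26% to 11.1% against 2.54% to 6.95%. In cells thinned to 2000 UMIs, an Mki67 UMI was found in 19.8% to 31.1% of monocytes and 14.5% to 31.0% of B-lineage cells, which in marrow include dividing precursors and are no background for this gene. No cell was called dividing from the score. The part of depth and doublets in the values that follow was not tested.

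Of 16046 genes with at least 50 UMIs, 2038 (12.7%) had a lower CPM in the cells over the limit in all 8 libraries and 3988 (24.9%) a higher one. Most lists other than cell cycle had more lower than higher members, so the counts that follow are not read as particular to their lists. Lower in all 8 libraries were 8 of 10 MHC class II genes, with Cd74 at 192 against 682 CPM, 3.55-fold lower (3.49 to 3.61). Also lower were 19 of 21 phagocytic and Fc receptor genes, with Fcgr1a at 21.7 against 106 CPM, 4.87-fold lower (4.64 to 5.12), and 8 of 15 chemokines, with Cxcl1 4.52-fold and Cxcl3 4.29-fold lower. Cx3cr1 was 2.93-fold, Nos2 2.65-fold, Cd14 2.04-fold and Il1b 1.62-fold lower. Of 13 classical monocyte genes, which include 4 of the rule, 9 were lower, among them Ly6c at 1.28-fold, while Lyz2 was at 1.01 times the level of the other monocytes, higher in 4 of 8 libraries. Irf8 was higher in the cells over the limit in all 8 libraries, at 90.8 against 54.0 CPM, 1.68-fold higher (1.62 to 1.75), as were the mitochondrial chaperones Hspd1 (1.72-fold) and Hspe1 (1.42-fold) and Ldha (1.17-fold). The granule proteases Mpo (3.06-fold), Prtn3 (2.03-fold) and Elane (1.77-fold), limited by the rule, were higher too, and Spp1 and Apoe were 8.90-fold and 5.00-fold lower. No test was made, since the 8 libraries are different conditions and the cells within them are not replicates.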
